A study of Mus musculus with 6 samples.

Results

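The genes on either side of Tal1 on mouse chromosome 4 were compared between erythroid progenitors that carry a DNA-binding mutant of SCL, the Tal1 product, and wild-type (WT) progenitors. The set held 58 genes, where 17711 genes had a probe on the array. The 58 were listed by position on chromosome 4 and without regard to their values. The list is not complete: 64 further genes of the same stretch had a probe and were not in it. Of the 58, 24 lie on the side of Tal1 that ends with Usp24 and 34 on the side that ends with Elovl1. Tal1 and its immediate neighbours, here Stil, Pdzk1ip1, Cmpk1 and the Cyp4 genes, were left out of the set and of the 64. The SclRER/RER group was homozygous by its label for a form of SCL altered in DNA binding, and the WT group carried the normal gene. Both groups were of the C57Bl/6 strain by their labels, and derived from fetal liver at E12.5, grown in culture for 3 days and purified as Ter119- erythroid progenitors, that is, cells without the Ter119 surface antigen of maturing red cells. Each genotype had 3 single-colour Illumina bead arrays. The labels do not state whether arrays of 1 genotype stem from different embryos, so each p-value rests on the spread among these samples, and that spread may be technical. They also name no strain in which the altered allele was made.

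SCL, a helix-loop-helix transcription factor, pairs with E proteins and joins GATA factors, LMO2 and LDB1 on the regulatory DNA of red cell genes. An allele made by gene targeting is bred together with the stretch of chromosome around it, because genes close to the altered site are rarely separated from it at meiosis. The stretch around Tal1 has no common function: it holds housekeeping enzymes, DNA repair and RNA processing genes, ubiquitin enzymes, kinases and membrane proteins, among them the glycine transporter Slc6a9, which supplies red cell precursors with the glycine that haem synthesis consumes.

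The promoter sequences below show the sequence around the start of 2 genes of the set that differed between genotypes, Tceanc2 and Slc6a9, and of Nsun4, which lies close to Tal1 and did not pass the test. They are RefSeq sequences of build GRCm38.p6, each of 300 bases from 250 before to 50 after the start, 5′ to 3′ on the gene's strand. Capitals mark matches on either strand to the E-box letters CAGATG and CAGCTG, the GATA letters AGATAA, and a spaced form in which CTG and GATA stand 8 or 9 bases apart (there the bases between are also in capitals).
Tceanc2, chr4:107178317-107178616, minus strand: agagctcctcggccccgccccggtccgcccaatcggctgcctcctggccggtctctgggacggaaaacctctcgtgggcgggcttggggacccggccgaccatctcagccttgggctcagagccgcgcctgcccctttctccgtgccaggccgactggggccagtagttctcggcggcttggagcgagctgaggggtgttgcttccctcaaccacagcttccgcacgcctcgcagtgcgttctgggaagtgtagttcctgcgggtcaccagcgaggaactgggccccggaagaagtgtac
Slc6a9, chr4:117835008-117835307, plus strand: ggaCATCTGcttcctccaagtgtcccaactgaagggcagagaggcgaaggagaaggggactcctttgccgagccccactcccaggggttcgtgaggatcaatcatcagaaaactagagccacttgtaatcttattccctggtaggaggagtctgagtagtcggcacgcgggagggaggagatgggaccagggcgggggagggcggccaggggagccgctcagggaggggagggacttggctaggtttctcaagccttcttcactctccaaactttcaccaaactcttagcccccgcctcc
Nsun4, chr4:116053762-116054061, minus strand: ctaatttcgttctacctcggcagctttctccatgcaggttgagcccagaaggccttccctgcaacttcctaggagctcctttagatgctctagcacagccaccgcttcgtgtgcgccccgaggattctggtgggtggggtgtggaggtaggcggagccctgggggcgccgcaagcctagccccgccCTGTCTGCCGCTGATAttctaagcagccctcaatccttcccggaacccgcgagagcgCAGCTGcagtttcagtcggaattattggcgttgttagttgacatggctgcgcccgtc

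Of the 58 genes, 56 had a probe and 36 had at least 1 probe detected on 3 or more of the 6 arrays, and these 36 were tested. A probe counted as detected where its detection p was below 0.01. The tested share of genes with a probe was 64.3% in the set and 38.7% over the whole array. Magoh and Akr1a1 had no probe. A further 20 genes had probes, of which none passed the detection filter: Lrrc42, Lrp8, Podn, Echdc2, Coa7, Gpx7, Prpf38a, Btf3l4, Atpaf1, Mob3c, Faah, Tspan1, Pik3r3, Tmem69, Gpbp1l1, Mmachc, Zswim5, Tmem53, B4galt2 and St3gal3. For 16 of the 20, no probe was detected on any array. Levels below are log2 intensities after background correction and quantile normalization, differences are SclRER/RER minus WT on the log2 scale, and each gene is represented by its detected probe with the highest mean intensity unless another probe is named.

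A few single genes of the stretch differed between genotypes and most did not pass the test. On the brightest detected probe of each of the 36 tested genes, 1 was higher (Hyi, whose dimmer probe was lower), 2 were lower (Slc6a9 and Tceanc2) and 33 did not pass an adjusted p below 0.05 in the limma fit. That is 8.33% of the tested members, where 6.58% of all 6855 tested genes were called (3.57% higher and 3.01% lower), so the share lay near the background. The median difference was 0.02 over the 36 genes and 0.02 over all tested genes. The median size of the difference, regardless of sign, was 0.08 in the set and 0.15 over all tested genes. In 29 of the 36 genes (80.6%) the difference was smaller than 0.25, as in 70.8% of all tested genes. The 95% confidence interval lay within a 2-fold change in both directions for 32 of the 36 genes (88.9%, against 91.6% of all tested genes). The 4 others were Zfyve9, Rnf11, Slc6a9 and Hyi. A difference of at least 2-fold was found for 1 of the 36, Hyi on its brighter probe, and for 3.06% of all tested genes.

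**Figure D1:**
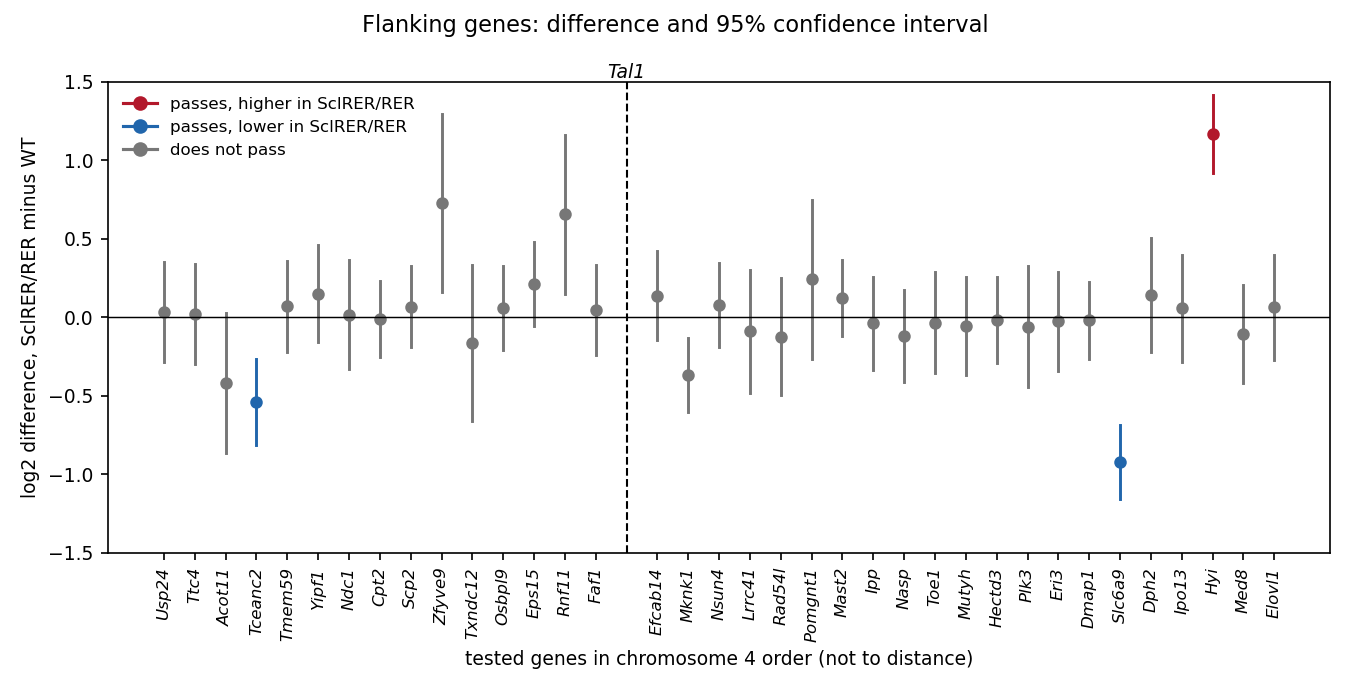
Log2 difference of SclRER/RER minus WT (points) with its 95% confidence interval (bars) for the 36 tested flanking genes in the order in which they lie on chromosome 4, with the place of Tal1 as a dashed line; the horizontal axis gives order and not distance. Hyi at 1.17, Slc6a9 at -0.92 and Tceanc2 at -0.54 pass the test, and the tested genes nearest to Tal1 on each side do not.

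Slc6a9, the glycine transporter GlyT1, fell. Its level was 9.71, 9.70 and 9.67 on SclRER/RER arrays 1 to 3, against 10.66, 10.59 and 10.60 on WT arrays 1 to 3. All SclRER/RER arrays were low and the groups did not overlap, with a gap many times the spread within either genotype. The means were 9.70 ± 0.02 in SclRER/RER and 10.62 ± 0.04 in WT (SD, n = 3 each). The difference was -0.92 (SE 0.10, 95% confidence interval -1.16 to -0.68, limma adjusted p = 0.00138), a 1.89-fold higher level in WT. Before normalization the signals were 1209, 744 and 777 intensity units in SclRER/RER and 1723, 1707 and 1394 in WT, and these did not overlap either. With arrays scaled to a common median in place of quantile normalization the difference was -0.80 and its adjusted p 0.0992. Another Slc6a9 probe was detected on no array.

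Slc6a9 is the gene among the 3 with a known part in red cell precursors. Of 10 tested erythroid markers 2 fell, where 6.58% of all tested genes were called and 3.01% were called lower. All 10 erythroid progenitor markers with a probe were detected and tested. Of these, Slc4a1, the band 3 anion exchanger, and Epor, the erythropoietin receptor, fell by 2.35 and 0.54. Alas2, the first enzyme of erythroid haem synthesis, differed by -0.57 and did not pass (adjusted p = 0.225). The other 7 did not pass either and lay on both sides of 0. They ran from -0.48 for Tfrc, the transferrin receptor, to 0.33 for Klf1, an erythroid transcription factor (adjusted p = 0.105 and 0.116). Between these lay Kit at -0.30, Gata1 at -0.23 and the globin genes Hbb-bs, Hbb-bt and Hba-a1 at -0.14, 0.03 and 0.09. The median difference of the 10 was -0.27. The summed marker level was 109449 to 124452 intensity units in SclRER/RER and 119135 to 129046 in WT. Being a sum of linear intensities, it weighs the brightest markers most. The part of these markers in the Slc6a9 result was not tested, and fewer cells of a type cannot be told apart from less RNA per cell in such bulk samples.

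Hyi, which encodes a protein annotated as a hydroxypyruvate isomerase, gave opposite answers on its 2 detected probes. The brighter probe read 10.71, 10.78 and 10.58 in SclRER/RER, against 9.53, 9.49 and 9.55 in WT. The groups did not overlap and the WT arrays lay within 0.05 of one another. The means were 10.69 ± 0.10 and 9.52 ± 0.03 (SD, n = 3 each, SclRER/RER and WT), a rise of 1.17 (SE 0.11, 95% confidence interval 0.92 to 1.42, adjusted p = 0.000522), or 2.25-fold. The dimmer probe read 6.69, 6.54 and 6.43 in SclRER/RER, against 7.20, 7.03 and 7.31 in WT. Here all SclRER/RER arrays were the lower ones, again without overlap. The means were 6.55 ± 0.13 in SclRER/RER and 7.18 ± 0.14 in WT, and this probe fell by 0.63 (SE 0.13, adjusted p = 0.0223). That call was lost on leaving out SclRER/RER array 2 (adjusted p = 0.07) or WT array 1, 2 or 3 (0.0726, 0.0564 and 0.0998). Raw signals showed the same split, with 2338, 1505 and 1420 units in SclRER/RER against 812, 844 and 705 in WT on the brighter probe, and 193, 140 and 137 in SclRER/RER against 207, 218 and 209 in WT on the dimmer probe.

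Taken per array, the brighter Hyi probe exceeded the dimmer one by 4.02, 4.24 and 4.16 in SclRER/RER, and by 2.33, 2.47 and 2.23 in WT. The mean gap differed by 1.79 between genotypes (exact permutation p = 0.1, the smallest possible with 3 against 3 arrays). This restates the 2 opposite differences and is not separate support. Both probes are annotated to the same Hyi transcript, and where each lies within it was not known here. Called probes in opposite directions were rare: among 1853 genes with at least 2 detected probes, 4 had them (0.216%), and the other 3 were Man2b1, Trappc12 and Vars2. The dimmer Hyi probe was detected on all 6 arrays, but its SclRER/RER values lay near the detection limit. A Tceanc2 probe at 6.25, 6.36 and 6.07 in SclRER/RER was detected on 1 of those arrays. With the authors' normalized values the dimmer Hyi probe differed by -0.39 and the brighter one by 1.12. The mean of both Hyi probes, which weighs them equally, differed by 0.27 (adjusted p = 0.198), so these data give no single direction for Hyi mRNA.

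Tceanc2, whose product carries a domain related to the N-terminal part of a transcription elongation factor, fell on its brighter probe. Its level was 8.0, 8.01 and 7.80 in SclRER/RER and 8.48, 8.58 and 8.38 in WT. The groups did not overlap, and the difference of -0.54 had an SE of 0.12, a 95% confidence interval of -0.81 to -0.27 and an adjusted p of 0.0316. The dimmer detected probe read 7.14, 6.56 and 6.58 in SclRER/RER and 6.79, 7.01 and 6.70 in WT, with overlapping groups, SclRER/RER array 1 being the highest of all 6. It differed by -0.07 (SE 0.18, adjusted p = 0.887). The call on the brighter probe was close to the threshold, and leaving out any of 5 arrays ended it. The adjusted p was 0.0681 and 0.0518 with SclRER/RER array 2 or 3 left out, and 0.0922, 0.154 and 0.0742 with WT array 1, 2 or 3 left out. It was also lost with no detection filter (0.0512), with median scaling (0.727) and for the mean of both probes (0.233).

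**Figure D2:**
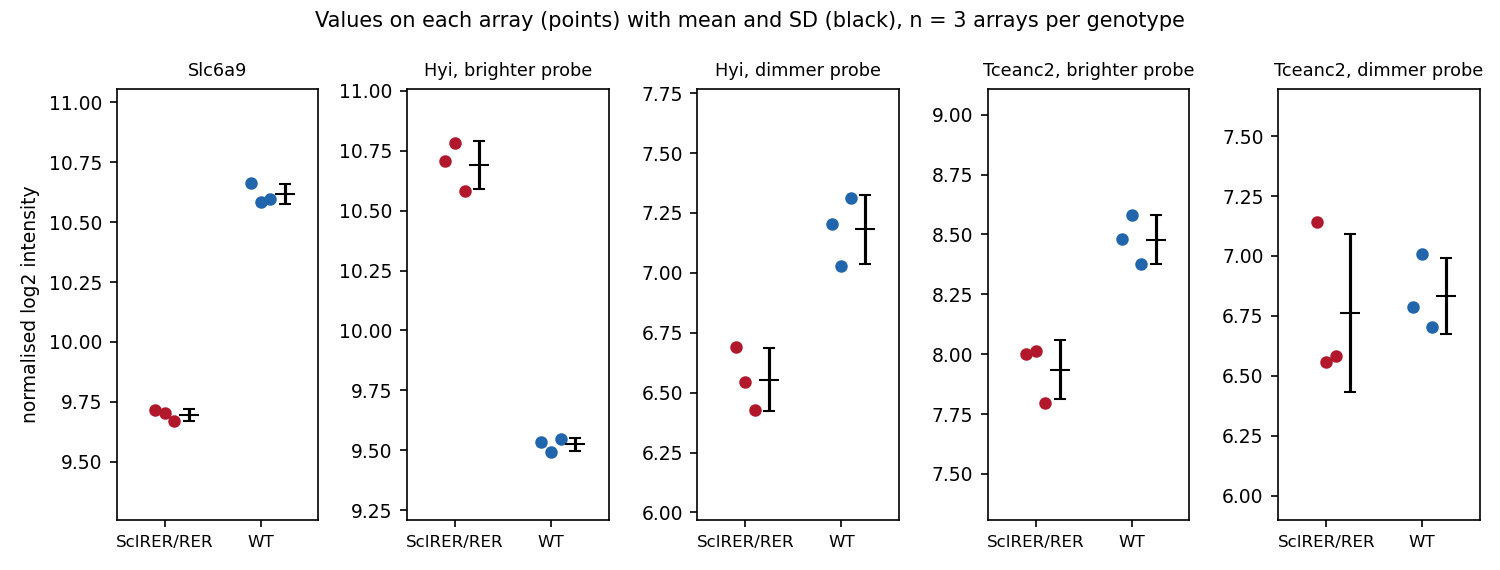
Normalised log2 intensity on each array for the detected probes of Slc6a9, Hyi and Tceanc2, SclRER/RER in red and WT in blue, with the mean and SD of 3 arrays in black; every panel spans the same range of log2 units. The 2 Hyi probes move apart in opposite directions, and the dimmer Tceanc2 probe overlaps between genotypes.

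At probe level, 56 of the 110 probes of these genes passed the detection filter. Of the 56, 1 rose and 3 fell, where 6.58% of all 11578 detected probes were called (3.33% higher and 3.26% lower). For the 15 genes with several detected probes, the median range between the probes' differences was 0.13, and 0.16 over the 1853 such genes of the array. Hyi and Tceanc2, 2 of the 15, had a called probe, as did 8.8% of the 1853. Nasp, a chaperone of histones, shows how close probes usually were: its 4 detected probes differed between genotypes by -0.12, -0.13, -0.12 and -0.25, none of them passing. Hyi, with a range of 1.79, was the only one of the 15 whose probes disagreed by more than 1 log2 unit, as did 47 of the 1853 (2.54%).

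With each side divided by the number of tested genes, 0 of the 17 nearer genes and 3 of the 19 farther genes were called, and 3 of the 17 and 3 of the 19 had an unadjusted p below 0.05. Over all tested genes, 6.58% were called and 19% had such a p. By side, 1 of 15 tested genes on the Usp24 side and 2 of 21 on the Elovl1 side were called, beside the same 6.58%. The groups are small, and the difference between near and far genes was not tested.

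On the Usp24 side the nearest tested genes were Faf1, Rnf11 and Eps15. Faf1, an adaptor that binds ubiquitinated proteins, read 12.76, 12.51 and 12.48 in SclRER/RER and 12.57, 12.63 and 12.42 in WT. The groups overlapped and the difference was 0.05 (SE 0.13, 95% confidence interval -0.24 to 0.33, adjusted p = 0.903). Eps15, an adaptor of clathrin-coated pits, read 12.02, 12.06 and 11.92 in SclRER/RER, each above the 11.92, 11.79 and 11.66 of WT in the unrounded values, and differed by 0.21 (SE 0.12, adjusted p = 0.388). Rnf11, a RING ubiquitin ligase, read 7.60, 7.46 and 8.23 in SclRER/RER, against 7.29, 7.25 and 6.77 in WT. SclRER/RER array 3 was far above the others and WT array 3 far below, without overlap between groups, and the difference of 0.65 (SE 0.22, adjusted p = 0.136) did not pass. Its other probe passed the detection filter through the SclRER/RER arrays, being detected on 3 of them and on 1 WT array. That probe gave 0.71 (adjusted p = 0.13) and is not separate support.

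On the Elovl1 side the nearest tested genes were Efcab14, Mknk1 and Nsun4. Efcab14, an EF-hand protein, read 9.85, 9.82 and 10.01 in SclRER/RER and 9.88, 9.81 and 9.58 in WT, with overlap and a difference of 0.14 (SE 0.13, adjusted p = 0.632), or 0.05 without WT array 3 and 0.08 without SclRER/RER array 3. Mknk1, a kinase that phosphorylates the cap-binding translation factor, read 10.17, 10.22 and 10.27 in SclRER/RER, against 10.55, 10.60 and 10.62 in WT. Its groups lay apart with little spread in either, and the difference of -0.37 (SE 0.10, 95% confidence interval -0.61 to -0.13) had an adjusted p of 0.0797. Mknk1 passed in 4 of the 17 alternatives, among them the authors' normalized values (adjusted p = 0.0422). Nsun4, a methyltransferase of mitochondrial ribosomal RNA whose promoter is shown above, read 10.34, 10.30 and 10.25 in SclRER/RER and 10.35, 10.07 and 10.24 in WT, and differed by 0.07 (SE 0.12, adjusted p = 0.808).

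Tal1 itself differed by 0.08 (95% confidence interval -0.18 to 0.34). Its neighbours Stil, Pdzk1ip1 and Cmpk1 had probes, but none of these was detected on any array.

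At the outer ends of the set, Usp24, a deubiquitinase, read 11.01, 10.82 and 10.56 in SclRER/RER and 10.85, 10.73 and 10.72 in WT. Elovl1, which elongates very long chain fatty acids, read 10.72 to 11.15 in SclRER/RER and 10.75 to 11.01 in WT. The groups overlapped in both genes, with differences of 0.03 (SE 0.14, adjusted p = 0.939) for Usp24 and 0.06 (SE 0.15, adjusted p = 0.884) for Elovl1. Scp2, a peroxisomal sterol carrier, was named with Faf1 and Eps15 for having the highest probe intensities. It read 11.86, 11.75 and 11.75 in SclRER/RER and 11.81, 11.75 and 11.60 in WT, and differed by 0.07 (SE 0.11, 95% confidence interval -0.19 to 0.32).

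**Figure D3:**
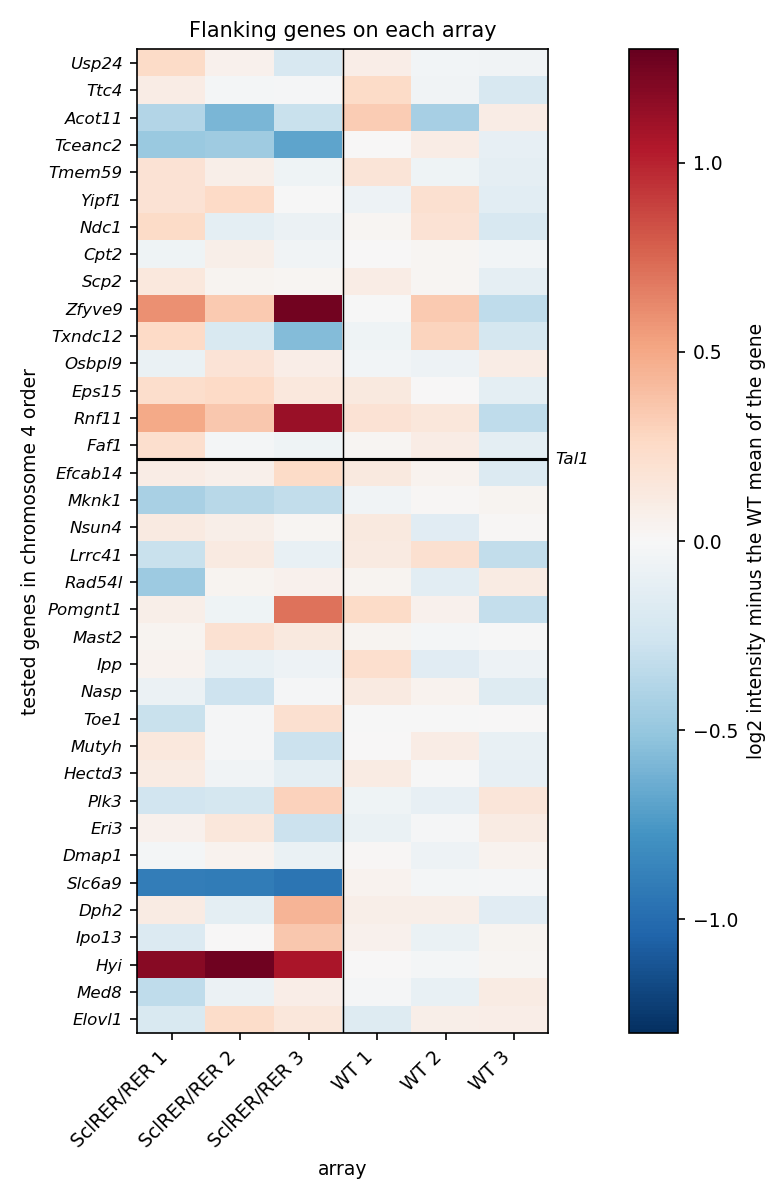
Log2 intensity of each tested flanking gene on each array, minus the WT mean of that gene (colour), with genes in chromosome 4 order from top to bottom, the place of Tal1 as a horizontal line and SclRER/RER arrays left of WT arrays. Slc6a9 is low and Hyi high on all 3 SclRER/RER arrays, while Zfyve9, Rnf11 and Pomgnt1 are highest on SclRER/RER array 3 and lowest on WT array 3.

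The 5 largest differences that did not pass were those of Zfyve9, Rnf11, Acot11, Mknk1 and Pomgnt1. Zfyve9, an endosomal anchor that brings SMAD proteins to the TGF-beta receptor, read 6.94, 6.69 and 7.60 in SclRER/RER and 6.34, 6.69 and 6.02 in WT, without overlap in the unrounded values. It was detected on 3 SclRER/RER arrays and 2 WT arrays, and its difference of 0.73 (SE 0.25, adjusted p = 0.14) was 0.47 without SclRER/RER array 3. Pomgnt1, which builds sugar chains on dystroglycan, read 6.77, 6.64 and 7.40 in SclRER/RER and 6.95, 6.76 and 6.39 in WT. Its groups overlapped and SclRER/RER array 3 alone lay above the WT arrays, so that the difference of 0.24 (SE 0.22) was 0.0065 without that array, 0.09 without WT array 3, 0.36 without WT array 1, and 0.39 where SclRER/RER array 2 was left out. Rnf11 likewise differed by 0.42 without SclRER/RER array 3. Acot11, an acyl-CoA thioesterase, read 6.79, 6.57 and 6.88 in SclRER/RER and 7.50, 6.74 and 7.26 in WT. WT array 2 fell among the SclRER/RER values, and the difference was -0.42 (SE 0.19, adjusted p = 0.281), or -0.25 without WT array 1 and -0.64 without WT array 2.

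Non-overlapping values were found in 8 of the 36 genes (22.2%), against 25.4% of all tested genes. Besides the 3 that passed they were Zfyve9, Eps15, Rnf11, Mknk1 and Mast2. Mast2, a microtubule-associated kinase, differed by only 0.12 (SE 0.11). The median SD between arrays was 0.14 in SclRER/RER and 0.13 in WT for the set, and 0.17 and 0.12 over all tested genes in the same order of genotypes.

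The genes were sorted into broad classes of function for this report, and the 3 that passed fell into 3 of them. Some placements are loose, as for Hyi in the first class below and Dph2 in the second. Among genes of lipid, redox and mitochondrial metabolism, 7 of 15 were tested, Hyi rose on the probe described above, and 6 did not pass. The called share was 14.3%, beside 6.58% of all tested genes. Cpt2, the inner membrane enzyme that releases long-chain acyl groups for oxidation in mitochondria, differed by -0.01 (SE 0.11), and Txndc12, a thioredoxin-like protein of the endoplasmic reticulum, by -0.17 (SE 0.22). The median of the 7 was 0.06.

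Among genes of DNA, RNA, chromatin and nuclear transport, 11 of 15 were tested and Tceanc2 fell (9.09%, beside 6.58% of all tested genes). The 10 others did not pass, and the median of the 11 was -0.03. Their differences, Tceanc2 aside, ran from -0.13 for Rad54l, a motor protein of homologous recombination, to 0.14 for Dph2, an enzyme of diphthamide synthesis. Between these lay Nasp at -0.12, Med8, a Mediator subunit, at -0.11, the DNA glycosylase Mutyh at -0.06, Toe1 at -0.03, Eri3 at -0.03, Dmap1, a subunit of a histone acetyltransferase complex, at -0.02, Ndc1, a membrane protein of the nuclear pore, at 0.01, and the importin Ipo13 at 0.06. All 11 confidence intervals lay within a 2-fold change. The dimmer Eri3 probe differed by 0.33 (adjusted p = 0.142), apart from the -0.03 of the brighter one.

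Among signalling and ubiquitin genes, 10 of 12 were tested and 0 passed (0%, beside 6.58% of all tested genes), with a median of 0.02. Of these, 3 had an unadjusted p below 0.05, as did 19% of all tested genes. Besides the genes given above, Lrrc41 differed by -0.09, Plk3, a polo-like kinase, by -0.06, the ubiquitin ligase Hectd3 by -0.02, and Ttc4, a chaperone cofactor, by 0.02.

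Among membrane, receptor, traffic and glycosylation genes, 6 of 12 were tested, Slc6a9 fell and 5 did not pass. The called share was 16.7%, beside 6.58% of all tested genes, in a class of few genes. Osbpl9, a member of the oxysterol-binding protein family, differed by 0.06, Tmem59 by 0.07 and the Golgi protein Yipf1 by 0.15. Of the 4 little annotated genes 2 were tested, Efcab14 and Ipp, and Ipp differed by -0.04.

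Between the outermost members, 64 further genes had a probe, and 19 were tested (29.7%, against 64.3% in the set). Tal1, Stil, Pdzk1ip1, Cmpk1 and the Cyp4 genes were not counted among the 64. None of the 19 tested genes passed in the limma fit, where 6.58% of all tested genes did, and 2 had an unadjusted p below 0.05, where 19% did. Their median difference was -0.03. The largest differences were those of Hpdl at 0.74 (SE 0.22, adjusted p = 0.0889) and of Ssbp3, a cofactor that stabilises LDB1, at -0.40 (SE 0.11, adjusted p = 0.0666). Ssbp3 read 11.22 on each SclRER/RER array, against 11.70, 11.65 and 11.52 in WT, and it passed in 7 of the 17 alternatives. Urod, an enzyme of haem synthesis, differed by -0.16 (adjusted p = 0.517), and Cdkn2c, a cell cycle inhibitor, by -0.23 (adjusted p = 0.475). On the rest of chromosome 4, 28 of 362 tested genes were called (7.73%), 7 higher and 21 lower.

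**Figure D4:**
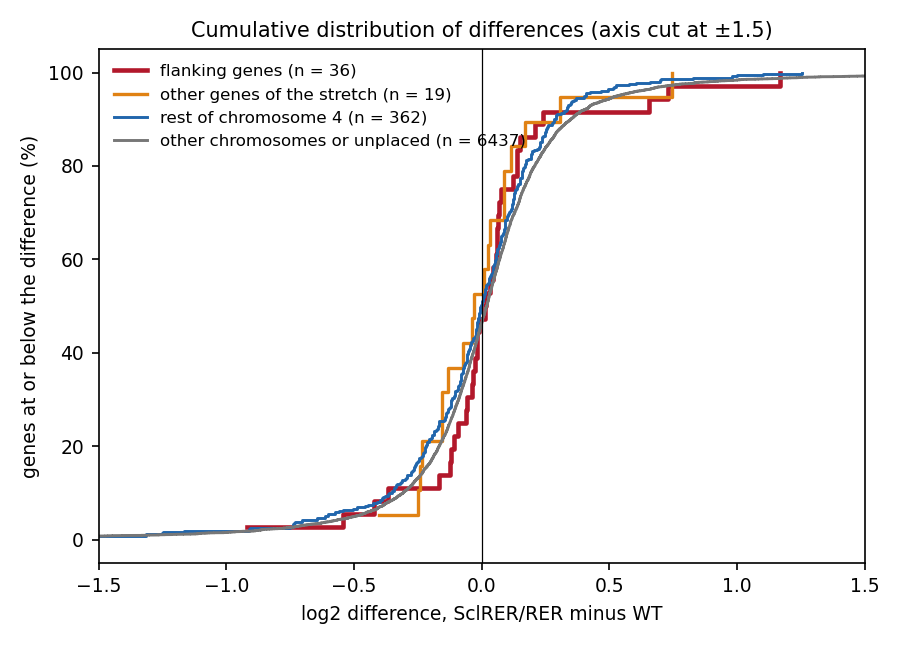
Cumulative share of genes (vertical axis, %) at or below each log2 difference of SclRER/RER minus WT (horizontal axis) for the 36 tested flanking genes, the 19 other tested genes of the same stretch, the 362 tested genes of the rest of chromosome 4 and all other tested genes. The 4 curves cross near 0, with medians of 0.02 for the flanking genes and 0.00 for the rest of chromosome 4, and the curve of the flanking genes is steep, with a median size of the difference of 0.08.

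Several genes of the stretch start back to back, which allows a gene that passed to be set beside its partner. Tceanc2 and Tmem59 lie on opposite strands with their RefSeq starts 264 bases apart, so the promoter printed above for Tceanc2 covers most of the DNA between the starts. Tceanc2 fell by 0.54, while Tmem59 read 10.67, 10.56 and 10.43 in SclRER/RER and 10.66, 10.43 and 10.37 in WT, with overlap and a difference of 0.07 (adjusted p = 0.837). The difference between the pair was not tested. Toe1 and Mutyh, with starts 175 bases apart, differed by -0.03 and -0.06, and Lrrc41 differed by -0.09 beside Uqcrh, a respiratory chain subunit, at 0.01.

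RefSeq promoters were found for 54 of the 58 genes, 75 in all; Rnf11, Dph2, Hyi and Med8 were not matched. CAGATG was found in 13.3% of the 75 and in 17.2% of all 32851 promoters of the same length, CAGCTG in 12% and 16.3%, and AGATAA in 8% and 11.2%. One of the spaced forms was found in 5 of the 75 (6.67%), and in 4.69% of all promoters. The 5 belong to Podn, Btf3l4, Nsun4, Pomgnt1 and Elovl1, of which the last 3 were tested and did not pass. In the promoters of the called genes, Slc6a9 had 1 CAGATG match in the first of its 3 promoters and Tceanc2 had none of these letters. These matches describe the printed windows only.

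As facts of all arrays, mean signal lay between 385 and 546 units and 11084 to 12678 of 46632 probes were detected per array. Pairs of arrays correlated with r of 0.975 to 0.984 within SclRER/RER, 0.989 to 0.993 within WT and 0.959 to 0.973 across genotypes. Of 7 megakaryocyte markers, 4 were tested and all 4 fell (Pf4, Ppbp, Treml1 and Alox12), with a summed level of 685 to 940 units in SclRER/RER and 1757 to 2160 in WT, and Gp1bb was detected on no array. Of 8 neutrophil markers, 7 were tested, and Mpo, Prtn3 and Ctsg fell, while Camp differed by 0.66 without passing. The median of the 7 was -0.15. Their summed levels of 4084 to 9284 units in SclRER/RER reached below and above the 6481 to 7216 of WT. Of 7 mast cell and basophil markers, 4 were tested, Cpa3 rose and Tph1 fell, with summed levels of 1038 to 1218 units in SclRER/RER and 1032 to 1126 in WT. Macrophage, lymphoid, hepatocyte and endothelial or stromal lists had 1, 0, 1 and 1 tested markers, none called. All these marker counts stand beside the 6.58% called over all tested genes. The hepatocyte list summed to 632 to 1023 units in SclRER/RER and 1116 to 1177 in WT. Its only tested marker, Apoa1, differed by -0.49 without passing, so the sum says little of hepatocytes as such. Adgre1, C1qa, Cd3e, Cd79a, Alb, Afp, Ttr, Pecam1 and Cdh5 were detected on no array. The part of these markers in the results of the flanking genes was not tested.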

How the data were processed

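Biotin-labelled RNA was hybridised, per the labels' protocols. The deposited non-normalized table holds a linear signal intensity for each probe on each array, unscaled and without subtraction of background, per the file headers and values. Beside it stand columns headed as detection p-values, but these rise with the signal, so the deposited values were read as a fraction, the complement of the detection p-value. The column next to WT array 3 followed that array's signals less closely (Spearman correlation 0.899, against at least 0.996 elsewhere), and the mean score at the same rank on WT arrays 1 and 2 was used for it. The authors' own quantile normalized intensity values served as an alternative.

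Signals were corrected in R 4.3.3 with limma 3.58.1 (normal-exponential model informed by the detection scores, offset 16), quantile normalized and put on the log2 scale. Detection p had to be below 0.01 on 3 or more arrays, which left 11578 probes. Genotype was the only term of the fit, its moderated tests (eBayes) were two-sided, and Benjamini-Hochberg adjustment ran over all probes fitted. The fit was also run on simulated data, drawn as independent normal values without array effects, so that run does not test the normalization. The number of arrays limits the precision. Probe names come from GEO's annotation of the platform and were updated with a GRCm38.p6 table, which also gave the order of genes. Of all probes, 29976 had 1 symbol, 10 had several and 16646 had none. Genes were named if a detected probe passed, if theirs was one of the 5 largest differences not passing, if they were among the 3 tested genes nearest to Tal1 on a side, if outermost, or if among the 3 brightest. Other genes of the stretch were added as single values after their values were seen. The members, lists and tests were chosen with earlier results of these data known. Replicate numbers were not used as pairs, since the labels do not say that they mark a shared litter or day. Deviations of same-numbered arrays correlated at 0.16, -0.03 and 0.07. The alternatives changed the background correction, scaling, filter, fit options and probe choice, and left out 1 array at a time.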

Additional observations from a re-analysis of the deposited data

How the results depend on the processing

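All values here refer to 17 alternatives, or 16 for single probes where the mean over probes does not apply. The count of 3 called members was 1 with median scaling (Hyi) and 1 with the mean over a gene's detected probes (Slc6a9). Each was 2.78% of tested members, where 3.49% and 7.59% of all tested genes were called, in that order. The count was 2 to 3 on leaving out 1 array, with Hyi and Slc6a9 called each time. That was 5.56% to 8.33% of tested members, where 2.8% to 8.71% of all tested genes were called. With no background correction, the authors' table or array weights, 4 members and 5 member probes were called, Mknk1 being added. The 4 were 11.1% of tested members, where 7.43%, 7.43% and 10.3% of all tested genes were called in these settings. With no detection filter 56 members were tested, and the 3 called were Hyi, Mknk1 and Slc6a9, without Tceanc2. That was 5.36% of the 56, where 1.74% of all 17711 genes were called. The 4 called probes became 1 with median scaling and 2 to 4 on leaving out 1 array. The count was 2 when the array left out was SclRER/RER 2 or any WT array. The median over members was 0.13 with median scaling, which shifted the median of all tested genes to 0.13 as well. Of the other genes of the stretch, 1 (Ssbp3) was called with no background correction, an offset of 50, the authors' table, no detection filter, the trend and robust options or the mean over probes, and 2 (Ssbp3 and Hpdl) with array weights. The cause was not tested. Signs near 0 turned: Faf1 was -0.0071 with array weights, Scp2 was -0.0168 for the mean over probes, and on leaving out 1 array Faf1 ran from -0.0462 to 0.10, Usp24 from -0.0766 to 0.15, Elovl1 from -0.0259 to 0.19 and Nsun4 from -0.0001 to 0.14. The dimmer Hyi probe fell under 10 of 16 alternatives and missed the threshold under 6 (adjusted p 0.0514 to 0.455), with a negative difference in each. The 451 calls over all tested genes became 239 with median scaling and 704 with array weights. They became 287 when SclRER/RER 2 was left out, 192 for WT 2 and 210 for WT 3. With the replicate number as a block, 3 members, 4 member probes and 432 genes were called, and no call of a named gene changed. Members whose signal is at background could not be compared.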
